A study of Rattus norvegicus with 16 samples.

Results

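The genes described here are 39 genes of autophagy, the route by which a cell encloses parts of its own content in a membrane and digests them in the lysosome. They were chosen by name, from the list of factors that build the autophagosome, load it with cargo and tether it to the lysosome. The choice was made with earlier results of these data known. Of the 39 genes, 35 have a probe on the array, and 34 of these entered the tests, out of 21451 genes in all. Atg101, Atg4a, Atg4d and Rubcn were not analysed here. The single probe of Atg14 lay above background on too few arrays to be kept. Of the 34 measured genes, 33 lay well above background on all 16 arrays, the exception being Atg9a.

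Liver mRNA of male Lewis rats was measured at 5 ages on one-colour whole-genome arrays, 1 array per sample. Ages of 3, 9, 12 and 18 months had 3 samples each, and the oldest age, 24 months, had 4. The labels give no treatment or genotype: every animal was kept free of specific pathogens on a 12-h light cycle with free food and water, and every liver was frozen in liquid nitrogen. The labels do not state that each sample came from a separate animal, so the p-values measure only the spread between samples, which may be technical. The hour at which tissue was taken is not given in the sources used here. The RNA was from whole liver, so fewer cells of a type and less RNA per cell cannot be told apart.

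Autophagy starts when the ULK kinase complex is released from inhibition by mTORC1 in fasted or stressed cells. A lipid kinase complex around PIK3C3 and Beclin 1 then marks the membrane on which ATG9A vesicles and a pair of ubiquitin-like conjugation systems attach proteins of the ATG8 family (LC3 and GABARAP). Cargo receptors bind both the ATG8 proteins and their load, and the kinase PINK1 marks damaged mitochondria for the same route. In liver, autophagy supplies amino acids and lipids between meals and clears protein aggregates and worn mitochondria. Much of its control acts on the proteins, which arrays do not measure.

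On each array, 52.5% to 65.2% of probes gave a signal well above background, and 0 spots were saturated. Precision is limited by how many arrays each age has. Mean correlations to the other arrays of the same age, computed across probes, were lowest for replicate 2 at 12 months (0.9647) and replicates 3 and 4 at 24 months (0.9745 and 0.9751). Below, these are called the arrays that stood apart. The margin was small: the other arrays had 0.976 and 0.9779 at 12 months and 0.9805 and 0.982 at 24 months. The median SD between arrays of the autophagy genes, on the log2 scale and in order of age, was 0.0777, 0.117, 0.243, 0.123 and 0.217. Arrays of 24 months lay on slides of their own, as did those of 18 months, so slide and age cannot be told apart for these ages. The labelled tissue fits its markers: all 8 hepatocyte markers were measured, with a summed level between 2630 and 4610 on every array, relative to the 75th percentile of the array.

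Autophagy genes that differed between ages are counted here beside the share of all genes. Whether the shares differ was not tested. Values are log2 signals relative to the 75th percentile of each array, and tests are limma's with Benjamini-Hochberg adjustment over all 21451 genes at a threshold of 0.05. Between 24 and 3 months, 3 of 34 autophagy genes passed (8.82%), against 13.3% of all genes. Pink1 rose (4.24% of all genes were higher), and Gabarapl2 and Atg5 fell (9.09% were lower). Between 9 and 3 months 0 passed, against 5.14% of all genes (1.94% higher and 3.2% lower), with 3 autophagy genes at an unadjusted p under 0.05 in the same limma fit. Between 12 and 9 months 3 passed (8.82%), against 6.27% of all genes (3.17% higher and 3.1% lower): Nbr1 and Rb1cc1 rose and Pik3c3 fell. Between 18 and 12 months 0 passed, against 1.39% of all genes (1.07% higher and 0.322% lower), and 5 were at an unadjusted p under 0.05 in limma. Between 24 and 18 months 4 passed (11.8%), against 25.8% of all genes (10.8% higher and 15% lower): Map1lc3a and Uvrag rose, and Atg5 and Atg9a fell. For any difference between the 5 ages, 9 passed the F test (26.5%), against 37.4% of all genes. In all, 11 of the 34 genes passed in at least 1 of these tests, and 23 in none. The matching share of all genes was not computed, so this count has no background to be read against.

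In size, the differences of the autophagy genes were smaller at the median than those of all genes. The median absolute log2 difference was 0.177 for autophagy genes and 0.26 for all genes between 24 and 3 months. Between 24 and 18 months it was 0.175 against 0.335, and for the steps from 3 to 9, 9 to 12 and 12 to 18 months it was 0.11, 0.186 and 0.148 against 0.22, 0.266 and 0.261. A difference of at least 2-fold was seen for 1 autophagy gene between 12 and 9 months (Pik3c3, 2.94% against 6.31% of all genes), and for 0 between 24 and 3 months or 24 and 18 months, against 10.4% and 16.1% of all genes. Signed medians lay near 0: -0.03 against -0.04 for all genes between 24 and 3 months, and 0.06 against 0.05 between 24 and 18 months. They were 0.05 against 0.04 between 9 and 3 months and -0.06 against -0.06 between 18 and 12 months. The sets lay furthest apart between 12 and 9 months, at -0.07 against -0.01. The sets compared are unlike in level: the median was 1.45 for the autophagy genes against -0.89 for all genes on the same log2 scale. They also differ in dim probes: 33 of 34 autophagy genes lay above background on all 16 arrays, against 19891 of all 25697 kept probes. Genes of like level were not compared. The smaller differences therefore cannot be read as particular to autophagy genes.

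**Figure D1:**
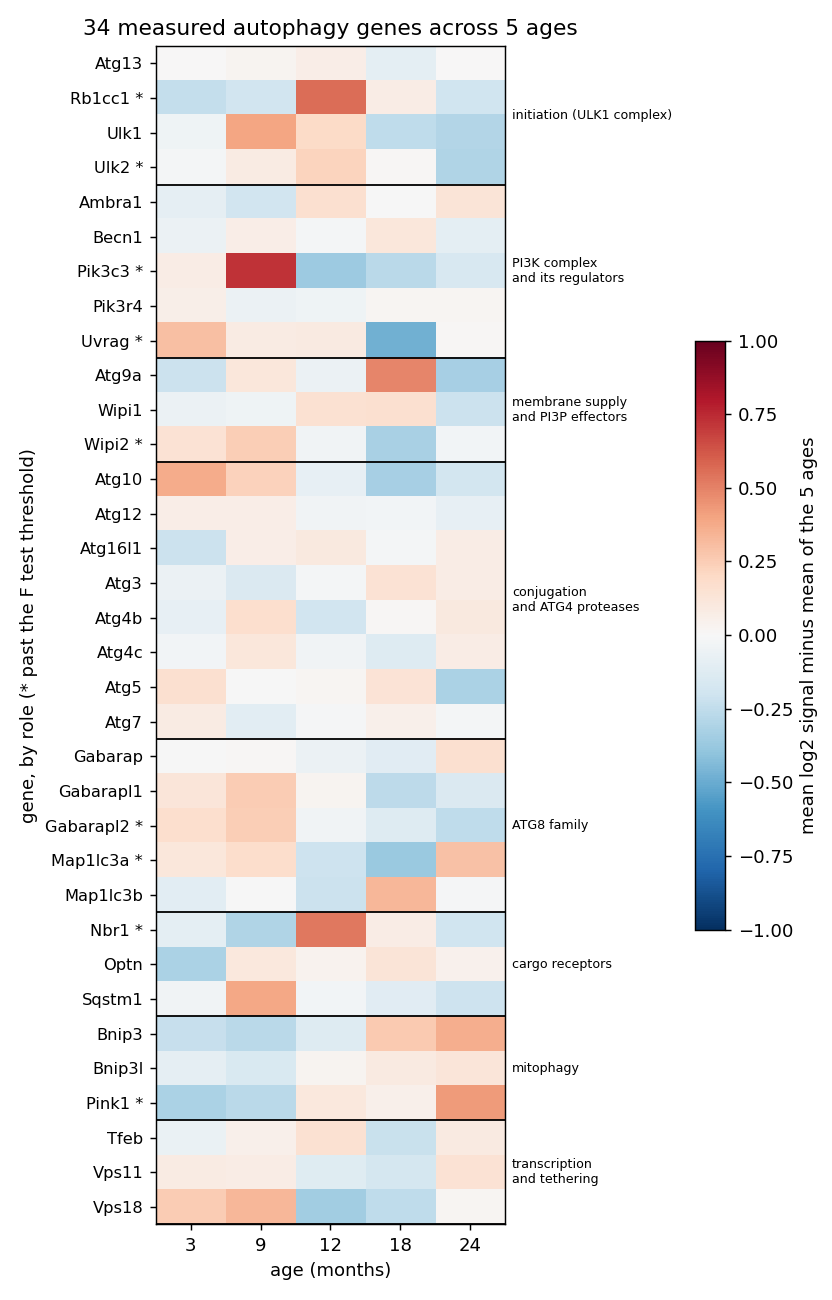
Mean log2 signal of each of the 34 measured autophagy genes at 5 ages (months, x axis), minus the gene's mean over the 5 ages, with genes grouped by role and a star for the 9 that passed the F test. Most cells are pale, and the strongest colours are those of Pik3c3 at 9 months, and Rb1cc1 and Nbr1 at 12 months.

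**Figure D2:**
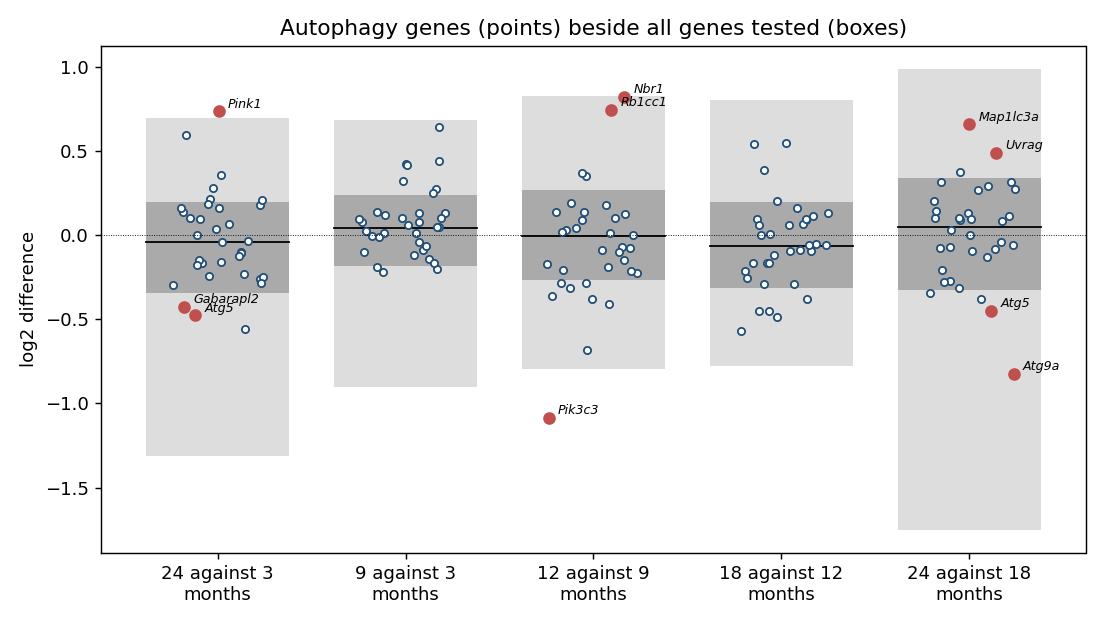
Log2 difference (y axis) of the 34 autophagy genes in 5 comparisons of ages (x axis). Filled red points passed the test and carry names, open points did not, the dark box holds the middle 50 percent of all 21451 genes, the light box runs from their 5th to their 95th percentile, and the line is their median. Pink1 lies above the light box for 24 against 3 months and Pik3c3 below it for 12 against 9 months.

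The kinase complex that starts autophagy had 4 of its 5 genes measured. One scaffold gene changed, between 9 and 12 months. Rb1cc1 (NCBI gene 312927), which encodes FIP200, the scaffold of the ULK complex, had log2 signals of 0.45, 0.59 and 0.62 at 3 months and 0.80, 0.33 and 0.68 at 9 months. At 12 months they were 1.78 (replicate 2), 1.06 and 1.21. At 18 months they were 0.84, 0.79 and 0.97, and at 24 months 0.83, 0.56, 0.33 and 0.64. On this probe, the brightest of the gene, every 12-month array lay above every array of the other 4 ages. The rise from 9 to 12 months was 1.68-fold (log2 difference 0.75, SE 0.19, adjusted p = 0.035 by limma).

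Rb1cc1 has 3 kept probes, which read different stretches of the transcript. Their agreement on the rise from 9 to 12 months is the reason to show a pair of them. They do not agree on a peak at 12 months. On A_44_P620222, which is not printed, all 18-month arrays (0.49, 0.46 and 0.35) lay above all 12-month arrays (0.25, 0.06 and 0.22). Both printed probes lie on the minus strand of chromosome 5 in the rn4 build and cross an exon junction. They are printed from 5′ to 3′ in the order in which they lie on the gene.
Rb1cc1 A_44_P122401, chr5:13328081-13328681: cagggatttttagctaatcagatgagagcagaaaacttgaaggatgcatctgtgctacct
Rb1cc1 A_44_P258052, chr5:13310980-13312310: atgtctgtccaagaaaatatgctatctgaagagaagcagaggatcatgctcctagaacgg
The second of these stands for the gene, having the brightest signal. Tested probe by probe over all kept probes, the rise from 9 to 12 months was 0.72 (adjusted p = 0.0132) for the first, 0.75 (adjusted p = 0.0349) for the second and 0.60 (adjusted p = 0.0314) for the remaining probe, all by limma. From 18 to 24 months the probes other than the brightest fell by 0.54 (adjusted p = 0.0104) and 0.78 (adjusted p = 0.00103), whereas the brightest had a difference of -0.28 (adjusted p = 0.286). The call of the brightest probe between 9 and 12 months was lost without replicate 2 at 12 months (0.53, adjusted p = 0.0603), without replicate 4 at 12 months (adjusted p = 0.0563) and without any 9-month array (highest adjusted p = 0.134).

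The other initiation genes were flatter. Ulk2 (NCBI gene 303206), 1 of the paired kinases of the complex, passed the F test alone (adjusted p = 0.0494). Its log2 signals were -1.16, -1.12 and -0.99 at 3 months, -0.998, -0.85 and -1.10 at 9 months and -0.85, -0.88 and -0.80 at 12 months. They were -1.11, -0.89 and -1.17 at 18 months and -1.47, -1.49, -1.51 and -1.01 at 24 months. Of the 24-month arrays, 3 lay below every array of the other ages, and replicate 4 lay among them. The F test of Ulk2 no longer passed when any of 15 of the 16 arrays was left out. The mean log2 signal of Ulk1, the other kinase, was highest at 9 months (-2.14 ± 0.18, SD, n = 3) and lowest at 24 months (-2.83 ± 0.27, SD, n = 4), with an adjusted p of 0.108 in the F test. Atg13, the partner through which mTORC1 acts on the kinases, had means between 1.55 and 1.71 at the 5 ages (adjusted p = 0.857).

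**Figure D3:**
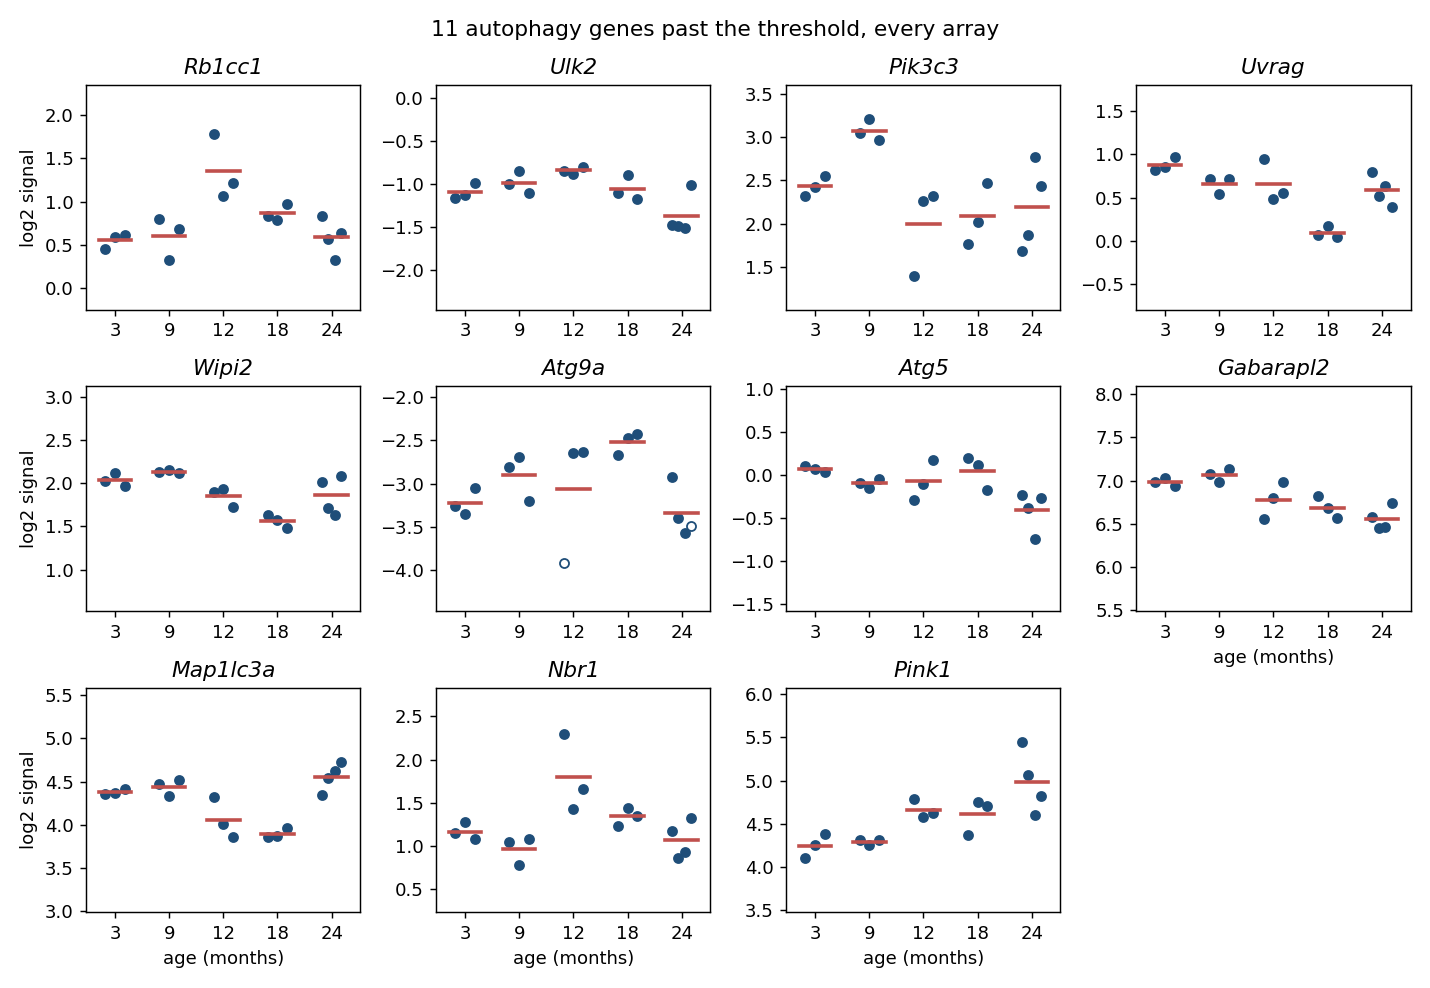
Log2 signal relative to the 75th percentile of the array (y axis, each panel spans the same width) at 5 ages in months (x axis) for the 11 autophagy genes that passed in at least 1 comparison of ages or in the F test. Points are arrays, open where the probe was not well above background, and red lines are means. On the brightest probe of each gene, which is the one shown, Rb1cc1 at 12 months lies above all other ages, and Uvrag at 18 months below them.

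The lipid kinase complex had 5 of 7 genes measured. Pik3c3 changed between 9 and 12 months and Uvrag between 18 and 24 months. Pik3c3 (NCBI gene 65052), the catalytic subunit (VPS34), had log2 signals of 2.32, 2.42 and 2.55 at 3 months and 3.05, 3.21 and 2.97 at 9 months. At 12 months they were 1.40 (replicate 2), 2.26 and 2.32, and at 18 months 1.76, 2.02 and 2.47. At 24 months they ranged from 1.69 to 2.77. The 9-month arrays lay above all others. The fall from 9 to 12 months was 2.12-fold (log2 difference -1.09, SE 0.29, adjusted p = 0.044 by limma), and the difference of 0.65 between 9 and 3 months did not pass (adjusted p = 0.261). Without replicate 2 at 12 months the fall was 0.79 and did not pass (adjusted p = 0.0955), nor did it pass without replicate 4 at 12 months (adjusted p = 0.0543) or without any 9-month array (highest adjusted p = 0.135). Pik3c3 has only 1 probe on the array.

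Uvrag (NCBI gene 308846), which joins the complex in place of Atg14 and acts in autophagosome and endosome maturation, was lowest at 18 months on its brightest probe. The log2 signals were 0.82, 0.85 and 0.97 at 3 months, 0.72, 0.54 and 0.72 at 9 months and 0.94, 0.49 and 0.56 at 12 months. They were 0.07, 0.17 and 0.04 at 18 months and 0.79, 0.52, 0.63 and 0.39 at 24 months. No 18-month array reached the lowest array of another age. The rise from 18 to 24 months was 1.41-fold (log2 difference 0.49, SE 0.13, adjusted p = 0.0148 by limma), and it did not pass without replicate 1 or 4 at 18 months (adjusted p = 0.0515 and 0.0565). The difference from 12 to 18 months was -0.57 (adjusted p = 0.0687).

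Its second probe did not show this rise, which is why both sequences are given. They lie on the minus strand of chromosome 1 in rn4, each across an exon junction, and are printed from 5′ to 3′ in gene order.
Uvrag A_43_P18307, chr1:156390036-156399237: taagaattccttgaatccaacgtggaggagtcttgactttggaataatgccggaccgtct
Uvrag A_44_P245761, chr1:156299484-156311156: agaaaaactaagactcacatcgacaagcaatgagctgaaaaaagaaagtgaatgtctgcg
The first, nearer the 5′ end, is the brighter one described above. On the second, log2 signals at 18 months were -1.09, -0.61 and -1.13, and at 24 months -1.31, -1.38, -1.54 and -1.15, a difference of -0.40 (adjusted p = 0.0797 by limma over probes). Every 24-month array of the second probe lay below every 18-month array. Against 3 months, this probe fell by 0.65 at 24 months (adjusted p = 0.015), where the first had a difference of -0.29 (adjusted p = 0.178). The changes of both probes from 18 to 24 months differed by 0.89, with an exact two-sided permutation p of 0.0571 (4 against 3 arrays), the smallest this design allows, and 0.114 after adjustment over the 2 genes compared this way. These genes were picked because their probes were seen to part, out of 18 measured genes with several kept probes. The adjustment does not cover that choice, so the p-value is no separate support for a difference. With the mean of both probes the difference was 0.05 (adjusted p = 0.823).

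Becn1, Pik3r4 and Ambra1 did not pass. Becn1 encodes Beclin 1, the regulatory core of the complex, and its mean log2 signal lay between 1.93 and 2.14 at all ages (F test adjusted p = 0.647). The second probe of Becn1 rose by 0.43 from 18 to 24 months (adjusted p = 0.0119 by limma over probes), where the first had a difference of -0.21 (adjusted p = 0.328). Pik3r4, the VPS15 subunit, was among the steadiest genes of the list, with means between 1.11 and 1.23 (F test adjusted p = 0.811). Ambra1, which binds Beclin 1, had means between -2.18 and -1.83 (adjusted p = 0.545).

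**Figure D4:**
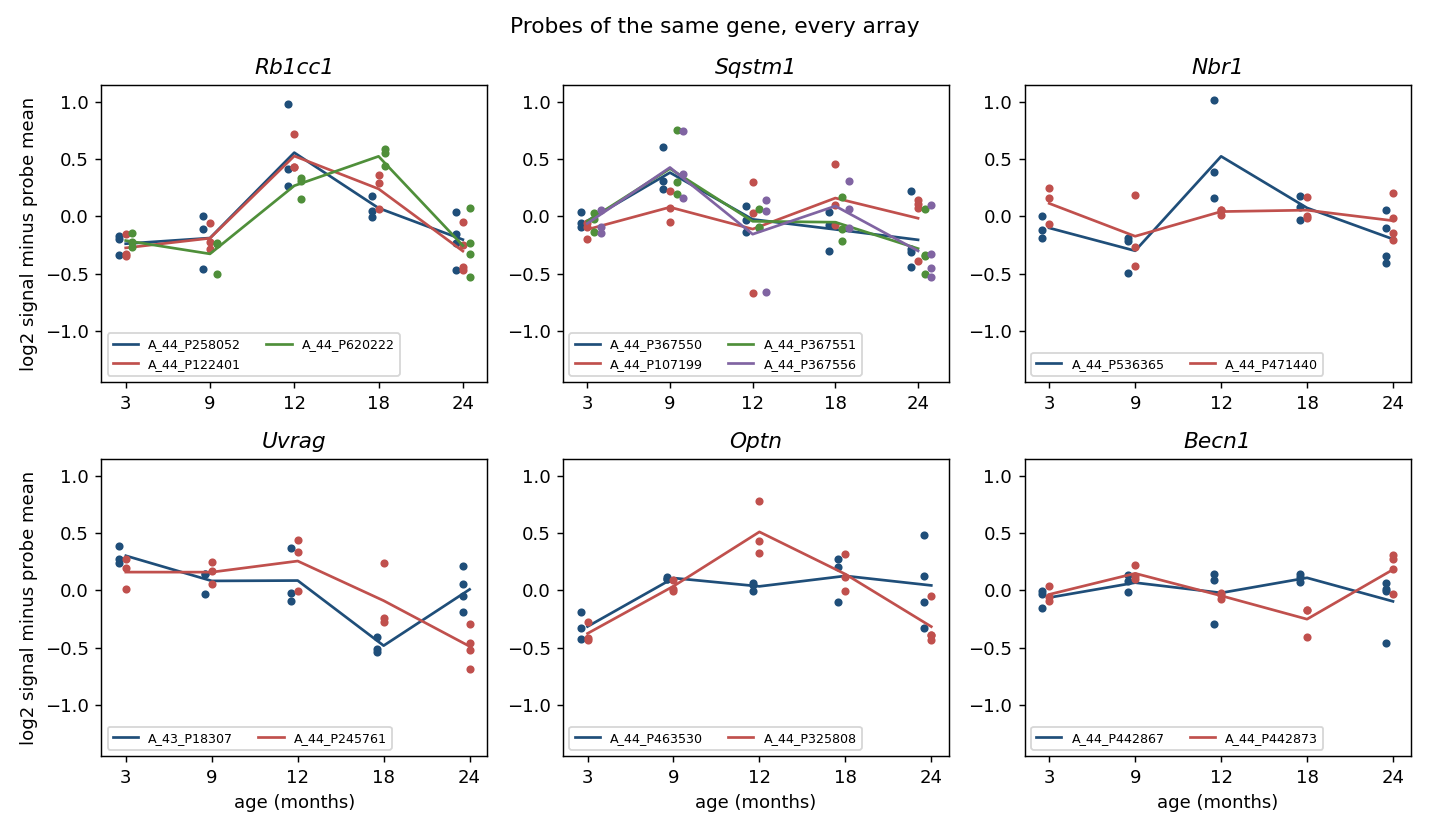
Log2 signal minus the mean of the probe over 5 ages (y axis) against age in months (x axis) for all kept probes of Rb1cc1, Sqstm1, Nbr1, Uvrag, Optn and Becn1. Points are arrays and lines join the means of each age. All 3 probes of Rb1cc1 are higher at 12 than at 9 months, whereas the probes of Uvrag part at 24 months, and those of Nbr1 and Optn part at 12 months.

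Of the genes for membrane supply and for reading the lipid mark, Atg9a and Wipi2 each passed in 1 test. Atg9a (NCBI gene 363254) encodes the membrane protein of the seed vesicles, and its probe was dim. At 18 months the log2 signals were -2.67, -2.47 and -2.42, and at 24 months -2.92, -3.40, -3.57 and -3.49, the last not well above background. At 3 and 9 months they lay between -3.36 and -2.69, and at 12 months they were -3.92 (replicate 2, not well above background), -2.64 and -2.63. Every 24-month array lay below every 18-month array. The fall was 1.77-fold (log2 difference -0.83, SE 0.27, adjusted p = 0.0397 by limma), and it did not pass when any of 6 arrays of these ages was left out (all of 18 months and replicates 2, 3 and 4 of 24 months, highest adjusted p = 0.113).

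Wipi2 (NCBI gene 288498), which binds the lipid mark and recruits the ATG16L1 complex, passed only the F test (adjusted p = 0.0267). Its log2 signals were 2.02, 2.12 and 1.97 at 3 months, 2.13, 2.16 and 2.12 at 9 months and 1.90, 1.93 and 1.72 at 12 months. They were 1.63, 1.57 and 1.49 at 18 months and 2.01, 1.71, 1.64 and 2.08 at 24 months. The 18-month arrays were the lowest, closely followed by replicate 3 at 24 months, and the call was lost when any of 8 arrays was left out (highest adjusted p = 0.0915). A second, dimmer probe of Wipi2 did not pass (F test adjusted p = 0.258). Wipi1, its relative, had means between -2.31 and -1.93 (adjusted p = 0.225).

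The conjugation genes and ATG4 proteases had 8 of 10 measured, and Atg5 alone passed in a comparison. Atg5 (NCBI gene 365601) encodes the protein joined to ATG12 in the complex that attaches ATG8 proteins to lipid. Its log2 signals were 0.11, 0.07 and 0.03 at 3 months, -0.10, -0.15 and -0.05 at 9 months and -0.29, -0.10 and 0.17 at 12 months. At 18 months they were 0.19, 0.11 and -0.18, and at 24 months -0.24, -0.38, -0.74 and -0.27. All 24-month arrays lay below all 3-month and 18-month arrays. Atg5 fell 1.39-fold from 3 to 24 months (log2 difference -0.47, SE 0.15, adjusted p = 0.0494) and 1.36-fold from 18 to 24 months (-0.45, SE 0.15, adjusted p = 0.0394), both by limma. Neither passed without replicate 3 at 24 months, the lowest array (adjusted p = 0.0925 and 0.0879), or without replicate 2 at 24 months (0.0813 and 0.0646). The first was also lost without any 3-month array and the second without replicate 1 or 3 at 18 months (highest adjusted p = 0.155 and 0.151).

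The other 7 genes of this group did not pass. Atg7, the activating enzyme of both systems, had mean log2 signals between -1.004 and -0.82 (F test adjusted p = 0.926). Atg3, the transfer enzyme for ATG8 proteins, had means between 3.29 and 3.58 (adjusted p = 0.384), and Atg12 between -0.33 and -0.18 (adjusted p = 0.71). Atg10, the transfer enzyme for ATG12, had the widest range, from 2.07 ± 0.11 (SD, n = 3) at 3 months to 1.37 ± 0.33 (SD, n = 3) at 18 months, and did not pass (adjusted p = 0.128). Atg16l1 was at 2.61 ± 0.01 (SD, n = 3) at 3 months and between 2.80 and 2.92 at later ages (adjusted p = 0.278). For the proteases Atg4b and Atg4c the adjusted p values were 0.358 and 0.433.

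The ATG8 family, whose members coat the forming membrane, had all 5 genes measured, and 2 of them passed in a comparison. From 18 to 24 months Map1lc3a rose, and from 3 to 24 months Gabarapl2 fell. Map1lc3a (NCBI gene 362245), an LC3 gene, had log2 signals of 4.35, 4.37 and 4.42 at 3 months and 4.47, 4.33 and 4.52 at 9 months. At 12 months they were 4.32, 4.01 and 3.85, at 18 months 3.86, 3.87 and 3.96, and at 24 months 4.35, 4.54, 4.62 and 4.72. The 18-month arrays lay below every array of 3, 9 and 24 months. The rise from 18 to 24 months was 1.58-fold (log2 difference 0.66, SE 0.13, adjusted p = 0.0018 by limma), and it passed without each array in turn (highest adjusted p = 0.0105). The level at 24 months was 0.18 above that at 3 months, which did not pass (adjusted p = 0.412).

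Gabarapl2 (NCBI gene 64670), also called GATE-16, had log2 signals of 6.98, 7.03 and 6.94 at 3 months and 7.08, 6.98 and 7.13 at 9 months. At 12 months they were 6.56, 6.79 and 6.98. The values were 6.82, 6.68 and 6.57 at 18 months and 6.58, 6.45, 6.46 and 6.74 at 24 months. All 3-month and 9-month arrays lay above all 18-month and 24-month arrays. The fall from 3 to 24 months was 1.34-fold (log2 difference -0.42, SE 0.12, adjusted p = 0.0348 by limma), and it did not pass when any of 6 arrays was left out (all of 3 months and replicates 1, 2 and 3 of 24 months, highest adjusted p = 0.128). Whether its probe also reads processed copies of the gene was not tested.

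Gabarap, Gabarapl1 and Map1lc3b did not pass. Gabarap had means between 6.28 and 6.55 (F test adjusted p = 0.36), and Gabarapl1 between 7.23 and 7.74 (adjusted p = 0.268). Map1lc3b, the LC3 gene most used as an autophagy marker, had means between 4.39 and 4.94, highest at 18 months (adjusted p = 0.358). All 3 probes of Map1lc3b were higher at 18 than at 12 months, by 0.33 to 0.55, and none of them passed.

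Cargo receptors link ubiquitin-marked load to the ATG8 proteins, and Nbr1 was the only one of 3 to pass in a comparison. Nbr1 (NCBI gene 303554), a receptor for aggregates and peroxisomes, had log2 signals of 1.149, 1.27 and 1.08 at 3 months and 1.05, 0.77 and 1.08 at 9 months. At 12 months they were 2.29 (replicate 2), 1.43 and 1.66, at 18 months 1.23, 1.44 and 1.35, and at 24 months 1.17, 0.86, 0.93 and 1.32. All 12-month arrays lay above all 9-month arrays, and replicate 2 stood highest. The rise was 1.77-fold (log2 difference 0.83, SE 0.20, adjusted p = 0.0274 by limma). Without replicate 2 it was 0.58 and still passed (adjusted p = 0.0382), and it did not pass when any 9-month array was left out (highest adjusted p = 0.103).

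Nbr1 also has a pair of probes whose readings differ, shown from 5′ to 3′ in gene order. They lie on the plus strand of chromosome 10 in rn4, each across an exon junction.
Nbr1 A_44_P536365, chr10:90577728-90580740: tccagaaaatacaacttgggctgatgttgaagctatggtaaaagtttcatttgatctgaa
Nbr1 A_44_P471440, chr10:90593228-90594724: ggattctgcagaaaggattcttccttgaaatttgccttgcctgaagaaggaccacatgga
The first is the brighter one. On the second, log2 signals were -0.72, -0.27 and -0.89 at 9 months and -0.44, -0.40 and -0.39 at 12 months, a difference of 0.22 (adjusted p = 0.467 by limma over probes). None of the 12-month arrays was higher than the highest 9-month array or lower than the lowest. The changes of both probes differed by 0.61, with an exact two-sided permutation p of 0.2 (3 against 3 arrays) and 0.2 after adjustment over the 2 genes compared. As for Uvrag, this pair was picked because its probes were seen to part.

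Sqstm1 and Optn did not pass on their brightest probes. Sqstm1 encodes p62, a receptor that is itself digested by autophagy, and its log2 signals at 9 months were 5.85, 6.22 and 5.92, against 5.52, 5.55 and 5.65 at 3 months. The 9-month arrays lay above all 3-month and 12-month arrays, and the difference of 0.42 did not pass (adjusted p = 0.194). All 4 kept probes of Sqstm1 were higher at 9 than at 3 months, by 0.20 to 0.49, none past the threshold in this comparison. One of the other 3 probes passed the F test over probes (adjusted p = 0.0424). Optn, a receptor in mitophagy, had a brightest probe at 2.26 ± 0.12 (SD, n = 3) at 3 months and between 2.61 and 2.71 later (F test adjusted p = 0.206). The second probe of Optn read 0.30, 0.44 and 0.28 at 3 months and 1.499, 1.04 and 1.145 at 12 months, and it passed the F test over probes (adjusted p = 0.0019). It fell by 0.46 from 18 to 24 months (adjusted p = 0.028), where the brightest probe had a difference of -0.08.

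In mitophagy, the removal of mitochondria, Pink1 rose between 3 and 24 months. Pink1 (NCBI gene 298575) encodes the kinase that gathers on damaged mitochondria. Its log2 signals were 4.10, 4.26 and 4.38 at 3 months, 4.31, 4.26 and 4.31 at 9 months and 4.79, 4.58 and 4.63 at 12 months. They were 4.37, 4.76 and 4.71 at 18 months and 5.45, 5.07, 4.599 and 4.83 at 24 months. All 24-month arrays lay above all 3-month and 9-month arrays and overlapped those of 12 and 18 months. The rise from 3 to 24 months was 1.67-fold (log2 difference 0.74, SE 0.17, adjusted p = 0.0129 by limma), and without replicate 1 at 3 months it did not pass (0.67, adjusted p = 0.0674). Without replicates 3 and 4 at 24 months together, a choice made after seeing the data, it was 1.01 (adjusted p = 0.00141). Those arrays had the lowest Pink1 signals of that age, so a larger difference was bound to follow from leaving them out.

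Bnip3 and Bnip3l, receptors in the mitochondrial membrane that bind ATG8 proteins directly, did not pass. Bnip3 went from 3.22 ± 0.10 (SD, n = 3) at 3 months to 3.82 ± 0.52 (SD, n = 4) at 24 months (adjusted p = 0.273). Its 12-month arrays alone ranged from 2.60 to 4.14. Bnip3l went from 5.03 ± 0.12 (SD, n = 3) to 5.24 ± 0.13 (SD, n = 4), with an adjusted p of 0.233.

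Promoters are shown for the 3 genes that passed between 24 and 3 months, to set beside their opposite directions. Each is the 250 bases before the annotated start in the GRCr8 build of RefSeq, from 5′ to 3′, with CACGTG in capitals. This is the E-box, the core of the sequences bound by TFEB and by the clock factors.
Pink1, chr5:155825951-155826200, minus strand: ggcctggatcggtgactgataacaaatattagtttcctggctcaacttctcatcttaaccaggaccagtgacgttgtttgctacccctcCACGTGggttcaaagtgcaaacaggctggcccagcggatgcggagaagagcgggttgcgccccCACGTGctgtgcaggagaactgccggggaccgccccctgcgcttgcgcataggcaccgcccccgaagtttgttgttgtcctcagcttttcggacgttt
Atg5, chr20:49380585-49380834, plus strand: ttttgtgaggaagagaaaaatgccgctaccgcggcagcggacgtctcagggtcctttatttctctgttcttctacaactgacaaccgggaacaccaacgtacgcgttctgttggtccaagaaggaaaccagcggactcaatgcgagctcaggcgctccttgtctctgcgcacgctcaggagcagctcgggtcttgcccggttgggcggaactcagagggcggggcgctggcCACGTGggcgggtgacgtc
Gabarapl2, chr19:56819576-56819825, plus strand: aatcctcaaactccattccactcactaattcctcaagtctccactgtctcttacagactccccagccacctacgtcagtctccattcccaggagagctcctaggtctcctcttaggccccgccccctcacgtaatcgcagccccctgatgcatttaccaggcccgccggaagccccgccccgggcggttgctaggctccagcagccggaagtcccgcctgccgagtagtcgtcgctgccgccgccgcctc
The promoter of Pink1, which rose, holds the motif at 161 and at 98 bases before the start. The promoter of Atg5, which fell, holds it at 19 bases before the start, and that of Gabarapl2 holds none.

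Promoters of 29 of the 34 measured genes were in the RefSeq table of 33469, and 5 motifs were searched in them on both strands. The E-box was in 5 of the 29 (17.2%: Atg3, Atg5, Bnip3, Pink1 and Vps11), against 5.59% of all promoters. Between 24 and 3 months these 5 genes had log2 differences of 0.14, -0.47, 0.60, 0.74 and 0.07 in that order, and of them Atg5 and Pink1 passed. The letters TGACNNNGC, named for NRF2, were in 4 of 29 (13.8%: Ulk2, Atg10, Gabarap and Vps18), against 10.1% of all promoters. The D-box of the clock output factors (TTATGTAA or TTACGTAA), the ATF4 motif (TGATGCAA) and the FOXO motif (TGTTTAC) were in 0 of 29, against 0.932%, 0.693% and 3.21% of all promoters. A match describes these letters and is no evidence of binding. The median GC content was 59.6% in the autophagy promoters and 51.2% in all promoters.

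Tfeb, the transcription factor that turns on lysosome and autophagy genes, did not pass. Its mean log2 signal lay between -1.79 and -1.41 (F test adjusted p = 0.498). The tethering genes Vps11 and Vps18, which bring autophagosome and lysosome together, did not pass. Vps18 was at -1.79, -1.79 and -1.75 at 3 months and -1.71, -1.52 and -1.85 at 9 months. At 12 months it was at -2.97 (replicate 2), -2.28 and -1.88, with a difference of -0.68 from 9 months (adjusted p = 0.0904). All 12-month arrays lay below all 9-month arrays.

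Other genes of the pathway outside the 39 were counted in 3 lists. Of other core and fusion genes, 19 of 23 were measured, and 4 passed the F test, against 37.4% of all genes. Between 24 and 18 months 6 of the 19 passed, 4 higher and 2 lower, against 25.8% of all genes. Vps39, which tethers the lysosome together with Vps11 and Vps18, fell from -3.22 at 18 months to -4.19 at 24 months. The log2 difference was -0.96 (SE 0.15, adjusted p = 0.000418 by limma). The lowest signals counted as well above background on the 24-month arrays ranged from -4.55 to -3.75. The 24-month mean of Vps39 is therefore near background, and the size of its fall is uncertain. Wdr45, a reader of the lipid mark like Wipi2, rose by 0.65 (adjusted p = 0.000789), and Snap29, part of the fusion machinery, rose by 0.41 (adjusted p = 0.0165). Nrbf2, a subunit of the Pik3c3 complex, fell from 4.07 at 9 months to 2.92 at 12 months (log2 difference -1.16, SE 0.21, adjusted p = 0.00824), the same step at which Pik3c3 fell.

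Of other cargo receptors 15 of 18 were measured, and 2 passed the F test, against 37.4% of all genes. Calcoco2, also called NDP52, fell by 0.84 from 18 to 24 months (adjusted p = 0.000535), and Tbk1, the kinase that activates receptors, rose by 0.38 (adjusted p = 0.0254), both by limma. Fkbp8 and Tollip had the next smallest values in the F test and did not pass (adjusted p = 0.104 and 0.118). Upstream kinases, mTORC1 and transcription factors had 22 of 28 measured, and 5 passed the F test, against 37.4% of all genes. Atf4, a stress-induced factor, rose by 0.84 from 3 to 9 months (adjusted p = 0.00665) and fell by 0.74 from 9 to 12 months (adjusted p = 0.0149). Rptor, the mTORC1 subunit that binds substrates, fell by 0.75 from 18 to 24 months (adjusted p = 0.00184). Bcl2, which binds Beclin 1, and Stk11 passed the F test (adjusted p = 0.016 and 0.0285) but no single comparison.

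Other measures moved in the same comparisons. Between 9 and 12 months, where Rb1cc1, Nbr1 and Pik3c3 changed, 8 of 9 clock and feeding genes passed, 7 higher and 1 lower at 12 months. The share of all genes that passed there was 6.27%. The clock output factor Dbp went from -0.36 to 5.41, and the clock activator Arntl from 2.24 to -2.34. The summed level of the 9 genes was 317 to 372 at 9 months and 339 to 545 at 12 months. Most of this sum is G6pc and Pck1, with mean log2 signals of 7.68 and 7.10 at 12 months, so it does not describe the clock genes. G6pc did not pass between 12 and 9 months (adjusted p = 0.385 by limma). Their part in the autophagy changes was not tested. For 24 against 18 months, 25.8% of all genes passed (10.8% higher and 15% lower). In this comparison 6 of 7 T and NK cell markers were higher, with summed levels of 10.9 to 27.4 against 4.28 to 4.77. Of Kupffer cell and macrophage markers 4 of 7 were higher (146 to 192 against 95.3 to 119). Most of that sum is Clec4f, with a mean log2 signal of 7.06 at 24 months. Of cholangiocyte markers 4 of 5 were higher (2.99 to 4.42 against 1.71 to 2.01). Of stellate cell markers 3 of 6 passed (2 higher, 1 lower), of endothelial markers 2 of 6 (both higher), of B cell markers 2 of 2 (1 higher, 1 lower), of neutrophil markers 1 of 5 (lower) and of clock and feeding genes 1 of 9 (higher). The endothelial, neutrophil and clock counts lie near or under the share of all genes. Of 8 hepatocyte markers 0 passed in limma in this comparison. Their summed level was 2630 to 4140 at 24 months and 3940 to 4230 at 18 months. The part of other cell types was not tested. For 24 against 3 months, 13.3% of all genes passed (4.24% higher and 9.09% lower). There 4 of 9 clock and feeding genes passed (3 higher, 1 lower), as did 4 of 7 Kupffer cell markers (3 higher, 1 lower). So did 3 of 6 stellate cell markers and 3 of 5 neutrophil markers, all lower. Also past the threshold were 3 of 7 T and NK cell markers and 3 of 6 endothelial markers (2 higher and 1 lower in each). The cholangiocyte count, 1 of 5 (higher), is near the share of all genes. Cd3e, a T cell marker, and Cd79b, a B cell marker, were not well above background on any array at 18 months. The same held at 24 months for Cd79a, a B cell marker, and Mpo, a neutrophil marker. Their calls in these comparisons therefore set a signal against background.

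Batches bear on the calls in different ways. Scan session is the name used here for the year of the scan date, as the file headers name no session. Scan session 1 held all arrays of 3 and 24 months, and within it the same 3 autophagy genes passed between these ages. Inside that session all 3-month arrays were scanned on 1 day and all 24-month arrays on another, so scan day and age cannot be told apart there. The 18-month arrays were scanned on a further day, in a different year from the 24-month arrays. Scan day and age therefore cannot be told apart between 24 and 18 months either. With slide as a random block, 0 of the calls between 24 and 3 months and 0 between 24 and 18 months passed in limma, with adjusted p values of 0.272 for Pink1, 0.229 for Gabarapl2 and 0.274 for Atg5 in the first. For 24 against 18 months the same block gave 0.0757 for Map1lc3a, 0.304 for Uvrag, 0.436 for Atg5 and 0.33 for Atg9a. With scan session as a fixed block, whose estimate rests on the 12-month arrays alone, these 4 calls were lost, and Atg9a turned to a difference of 0.46 (adjusted p = 0.349). The calls between 12 and 9 months passed in limma with slide as a random block (adjusted p = 0.00157 for Nbr1, 0.0019 for Rb1cc1 and 0.00252 for Pik3c3). With a slide correlation of 0.687, that fit leans on slide 2, the only slide with arrays of both ages. Its only 12-month array is replicate 2, and the block fit was not repeated without it. Within slide 2, which held 2 arrays of 9 months and replicate 2 of 12 months, the differences were 1.23, 1.04 and -1.61 in the same order (adjusted p = 0.0436, 0.0447 and 0.0436 by limma). These values rest on 1 array at 12 months, the one that stood apart, with the spread taken from the 9-month arrays alone. Without that array, over all ages, they were 0.58, 0.53 and -0.79.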

How the data were processed

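Liver RNA of 16 samples at 5 ages was hybridised to arrays of 1 colour. Per the file headers, Agilent Feature Extraction 10.7.3.1 made the intensity columns (processed, mean and background signal) and the spot flags (other), with no normalization between arrays, and probe positions are on rn4. The labelling kit that the labels name is one for microRNA, and this was not resolved. The authors also deposited a table of log2 values for the whole series, whose normalization between arrays is not given in the sources used here. Its columns correlated at 0.9968 to 0.9999 with the scanner values, with medians of 4.923 to 4.939, and served as an alternative.

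Processed signals were taken to log2 minus the 75th percentile of each array. Spots flagged as outliers were left out, and spots of a probe were averaged. A probe was kept (25697 of 41012) where every array of 1 age or more had it well above background, and the brightest kept probe stood for a gene, named by the files' gene name column. A mean per age was fitted over all 16 arrays with limma 3.58.1 in R 4.3.3, two-sided, with Benjamini-Hochberg adjustment over 21451 genes at 0.05, after the code was tested on simulated data. Permutation tests were exact (scipy 1.17.1). Genes were named where they passed in any of the 6 tests. One gene of the list is not reported here, and no count of members includes it. The members and lists were chosen with earlier results of these data known. Depth is signal over background: 52.5% to 65.2% of probes per array. Alternatives were other background correction, normalization, filters, probe rules and names, slide, scan or replicate blocks, fits on the compared ages, and leaving out arrays.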

Additional observations from a re-analysis of the deposited data

Results flagged for a closer look

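In the group of 4 arrays at 24 months, 1 array lay far from the other 3 for 3 of 34 genes tested this way, by Dixon's criterion (the gap to the nearest array over the whole range). For Becn1, replicate 3 was at 1.573, and the others at 2.026 to 2.09. For Vps11, replicate 3 was at 1.131, and the others at 0.7819 to 0.7936. For Ulk2, replicate 4 was at -1.014, and the others at -1.507 to -1.471. Chance alone gives such a gap in about 5% of groups. Replicates 3 and 4, each on a slide of its own, also had the lower mean correlations to their own age (0.9745 and 0.9751). The margin to replicates 1 and 2 (0.9805 and 0.982) was small.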

How the results depend on the processing

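The counts of autophagy genes that passed depended on the processing, in the order 24 against 3, 12 against 9, 24 against 18 months and any age. They were 3, 3, 4 and 9 as reported, and 0, 1, 0 and 1 with normexp background correction, where 483, 165, 973 and 1615 of all genes passed in place of 2858, 1345, 5541 and 8029. Normexp moved the median of all genes by 0.159 between 24 and 3 months, and under it the difference of Atg9a (0.09332) between 24 and 18 months turned. With no filter on dim probes the counts were 1, 0, 2 and 5. Testing each probe, 7 genes passed between 24 and 18 months. With slide as a random block the counts were 0, 6, 0 and 6, and 2 genes passed between 9 and 3 months. As a fixed block, slide gave 2 between 9 and 3 months and 9 between 12 and 9 months. Within slide 1, 4 passed between 9 and 3 months, and within scan day 1, 3 passed there and 11 between 12 and 9 months. Scan day or scan session as a fixed block, or scan session 1 alone, gave 6 between 12 and 9 months, and the session block turned Atg9a (0.46). On the compared ages alone, 0 passed for 24 against 3 months, 3 for 9 against 3 and 0 for 12 against 9. At least a 2-fold change left 0, 1 and 0. Without the 3 arrays that stood apart, 6 passed between 24 and 3 months, 3 between 9 and 3, 7 between 24 and 18, and 15 for any age. Leaving out 24-month replicates 3 and 4 together, chosen after seeing the data, gave 3 and 5 for 24 against 3 and 24 against 18 months. Leaving out each array in turn gave 0 to 6, 0 to 4, 1 to 4 and 5 to 13, with 0 to 0 between 9 and 3 and 0 to 1 between 18 and 12 months. For the settings after normexp the counts of all genes are not given here, so these shifts cannot be read as particular to the autophagy genes. The cause of these shifts was not tested.

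With replicate number as a block (the replicate block), 1, 1, 2 and 4 genes passed. The numbers do not pair the samples: over 13 pairs of arrays with the same number in 2 compared ages, deviations from the group means correlated at -0.3 to 0.0708. Quantile normalization, the deposited table and current gene names kept every count within 1.5 times. Signal over background limits Atg9a most.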
